A study of Mus musculus with 4 samples.

Results

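This comparison sets cultured muscle stem cells of old mice against those of young mice on a stiff substrate, taking all 1739 cells of the old library and all 1481 cells of the young one, 3220 of the 5913 cells in the series. Both libraries came from wild-type C57BL/6 skeletal muscle. The cells had been kept for 7 days on polydimethylsiloxane, an elastic silicone, of 29 kPa in DMEM with 10% fetal bovine serum, then lifted with trypsin and profiled with droplet-based 3' RNA sequencing (10x Chromium, v3 chemistry). The other 2 libraries held the same kinds of cells on 12 kPa, and the study asked how substrate stiffness acts on young and old cells. The labels name the mice only as young or old, give no age in months and do not say how many animals went into a library. Each side is 1 library, so the differences have no replicate check, no test was run and no p-value is given. Age and everything else that set these 2 libraries apart cannot be told apart.

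Muscle stem cells, or satellite cells, rest beneath the basal lamina of the fibre under the transcription factor Pax7. When activated they divide as myoblasts, and Myod1 and then Myog drive them out of the cell cycle into myocytes, which fuse and assemble sarcomeres. Substrate stiffness is known to act on these cells through integrins, the actin cytoskeleton and the coactivators YAP and TAZ, and old muscle is known for delayed repair and a stiffer matrix. A culture therefore holds progenitors, dividing myoblasts and myocytes side by side, and a mean over all cells moves when their proportions do. For this reason each gene was also compared within 3 ranges of Myog: low (log2(CPM + 1) under 7), middle (7 to under 11) and high (11 or more). CPM is UMIs, or molecules counted once each, scaled to the same total in every cell, counts per 1000000. Such a bin is a range of 1 gene and not a cell type.

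The cells carried the myogenic markers of their label. Desmin (Des) stood at 3453 CPM in the young and 5072 CPM in the old library, and Cdh15, a cadherin of satellite cells and myoblasts, at 148 and 214 CPM. Of the other progenitor markers, Itga7 was at 206 and 239 CPM and Spry1 at 23.4 and 25.4 CPM. Lower in the old library were Pax7 at 66.1 and 32.1 CPM, Myf5 at 81.9 and 56.0 CPM and Vcam1 at 18.6 and 8.08 CPM. So were Sdc4 at 80.7 and 76.0 CPM and Chrdl2 at 2.05 and 1.05 CPM, and Calcr was missing. Endothelial and macrophage markers were scarce: all 6 endothelial genes and 9 of 10 macrophage genes in the tables were under 5 CPM in both libraries, the last being Lyz2 at 0.150 and 5.09 CPM. Of 9 fibro-adipogenic markers 5 were under 5 CPM in both, with summed levels of 168.5 CPM in young and 158.1 CPM in old cells, mostly Gsn at 126 and 121 CPM. Of 8 pericyte and smooth muscle markers, which include Des, 2 were under 5 CPM. Acta2 was at 1757 and 1477 CPM, Pdgfrb at 27.1 and 10.6 CPM and Abcc9 at 19.3 and 40.7 CPM. A few markers were higher in the old library: the 5 tenocyte markers summed to 169.5 CPM in young and 304.4 CPM in old cells, nearly all of it Scx at 162 and 301 CPM, and the B cell gene Cd79a was at 2.01 and 7.42 CPM. Their part in the results was not tested. The Y-linked Ddx3y stood at 69.3 and 69.8 CPM, so both libraries held male cells. The young library totalled 44004645 UMIs with a median of 28604 a cell, and the old one 68244869 with a median of 37067. Mitochondrial genes took a median of 5.47% and 5.94%, and 13 young and 109 old cells had under 1%, 87 of the latter in the middle bin. The 2 libraries shared 0 cell barcodes, and doublets were neither called nor removed.

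The old cells lay further along in Myog. Myog-low cells made up 37.7% of the young library (exact binomial 95% interval 35.3 to 40.3%, 559 cells) and 15.2% of the old one (13.5 to 17.0%, 264 cells). The middle bin held 32.7% of young cells (30.3 to 35.1%, 484 cells) and 56.1% of old cells (53.7 to 58.4%, 975 cells). The high bin held 29.6% (27.3 to 32.0%, 438 cells) and 28.8% (26.6 to 30.9%, 500 cells), intervals that overlap. Thus the old library had fewer cells without Myog, more with moderate Myog and a like share with the highest levels. No Myog UMI was found in 29.4% of young and 9.03% of old cells. The cut at 7 ran through a sparse stretch, with 32 young and 39 old cells within 0.5 of it. The cut at 11 ran through the bulk of the cells, with 277 young and 375 old cells within 0.5. These intervals cover counting error only. The median cell of the low bin held 23968 UMIs in the young and 24332.5 in the old library. After thinning to 10000 UMIs, which left out 11 young and 2 old cells with fewer, the low bin held 38.3% and 17.3%.

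**Figure D1:**
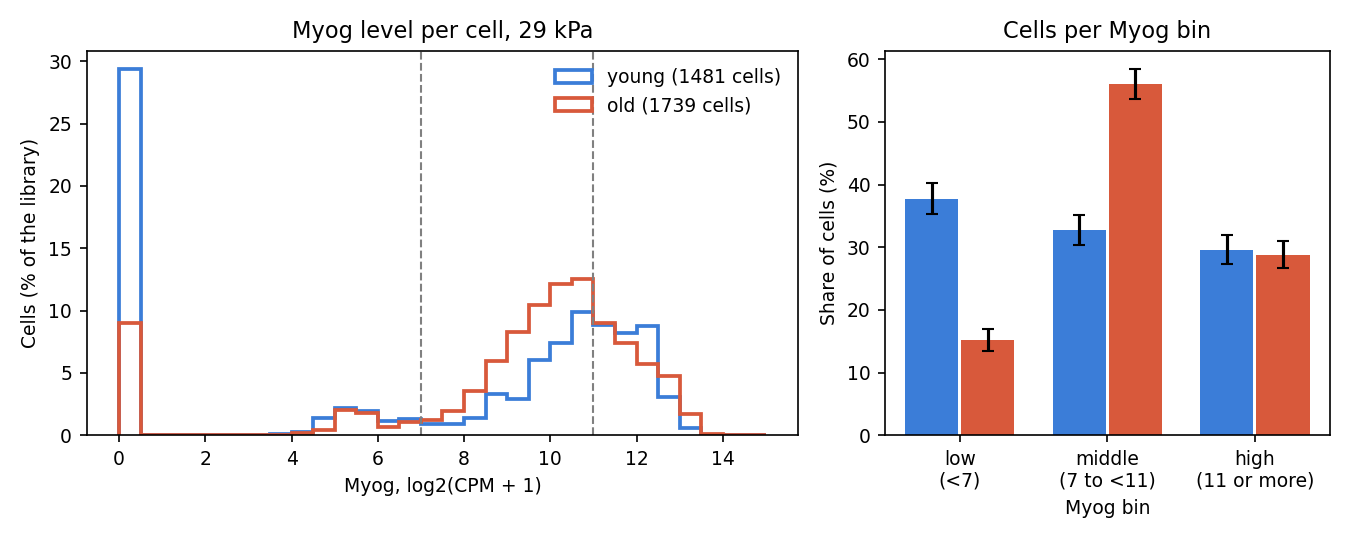
Left, Myog per cell as log2(CPM + 1) against the share of each library's cells, with dashed lines at the cuts of 7 and 11; right, the share of cells in each Myog bin, with exact binomial 95% intervals as error bars. The low bin holds 37.7% of young and 15.2% of old cells, and the middle bin 32.7% and 56.1%.

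More genes were lower than higher in the old library, and most of the large differences were smaller once both libraries were given the same bin shares. Differences are log2 ratios, old over young, of mean CPM plus 5, over the genes that reached 20 CPM in the young or the old library, called measured below. They understate the difference of low genes. Over all cells 53 of 6043 measured genes (0.877%) were at least 2 times higher in old cells and 228 (3.77%) at least 2 times lower. When the old bin means were weighted by the young bin shares, 30 of 6040 genes (0.497%) were 2 times higher and 38 (0.629%) lower. Of the 53 genes higher over all cells, 15 (28.3%) stayed past 2-fold with equal shares, and of the 228 lower ones 32 (14.0%). All 53 and 215 of the 228 still had a log2 ratio of at least 0.32 in the same direction, and 0 changed sign. A large part of the difference over all cells thus went with the bin shares, and a smaller part was present among cells of the same Myog bin. Cells of the low bin were not fully alike in Myog, which averaged 12.28 CPM in young and 22.85 CPM in old ones. At full depth a Myog UMI was found in 22.2% of young and 40.5% of old Myog-low cells. The middle bin was not fully alike either. Over 1000 CPM of the muscle actin gene Acta1 was found in 78.9% of young and 92.3% of old middle-bin cells, against 85.8% and 86.6% in the high bin. The part of these differences in the bin and equal-share values was not tested. The median over all measured genes was -0.13, and rescaling, which took an offset of -0.10 out of the ratios, gave 82 genes higher and 191 lower, so that 30% of the calls were higher in place of 18.9%.

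Within the bins the counts were lopsided in different ways. In Myog-low cells 102 of 6448 genes (1.58%) were 2 times higher in old and 63 (0.977%) lower. In the middle bin 28 of 5593 genes (0.501%) were higher and 142 (2.54%) lower, or 45 and 120 after rescaling. In the high bin 21 of 5496 genes (0.382%) were higher and 22 (0.4%) lower, or 26 and 18 after rescaling. At the smaller step of a log2 ratio of 0.32 either way, used below to count members of gene lists as higher or lower, 11.1% of genes were higher and 29.4% lower over all cells. The same shares were 10.1% and 15.1% in the low bin, 7.28% and 21.8% in the middle bin, 6.75% and 10.8% in the high bin, and 6.23% and 12.6% with equal shares. A list whose members are mostly lower over all cells is therefore read against nearly 29.4% of all genes, and no list was tested.

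**Figure D2:**
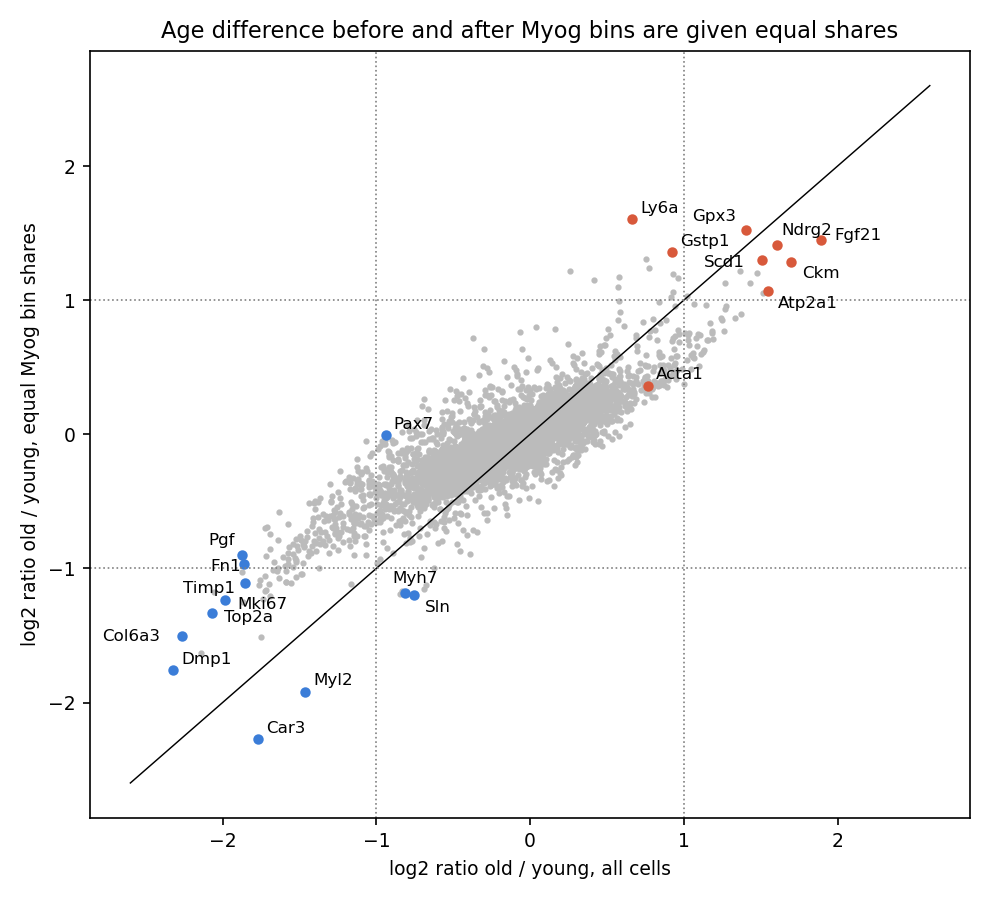
Each point is a gene with at least 20 CPM; the horizontal axis is the log2 ratio of old over young over all cells and the vertical axis the same ratio with equal Myog bin shares, with the diagonal drawn and dotted lines at 2-fold. The cloud is flatter than the diagonal, Pax7 lies at -0.01 with equal shares, and Car3, Myl2, Myh7, Sln and Ly6a lie further from 0 than over all cells.

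The promoters of 3 genes are printed because the results below turn on them: Gpx3, higher in old cells in every bin, and Ckm and Fgf21, higher chiefly in cells with Myog. Each is the 150 bases before the start listed by RefSeq on GRCm38.p6, 5′ to 3′. They lie at chr11:54902704-54902853 on the plus strand for Gpx3, chr7:19410944-19411093 on the plus strand for Ckm and chr7:45615491-45615640 on the minus strand for Fgf21. Capitals mark matches to the E-box CANNTG and to the TATA box TATAAA, each sought on both strands. CANNTG is a broad form that includes the sites of Myod1 and Myog and is not particular to them.
Ckm: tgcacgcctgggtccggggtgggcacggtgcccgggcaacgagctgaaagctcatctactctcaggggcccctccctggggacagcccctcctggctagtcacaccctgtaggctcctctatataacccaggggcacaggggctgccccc
Fgf21: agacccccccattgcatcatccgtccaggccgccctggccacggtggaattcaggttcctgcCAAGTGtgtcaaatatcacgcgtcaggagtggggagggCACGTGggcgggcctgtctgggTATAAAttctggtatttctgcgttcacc
Gpx3: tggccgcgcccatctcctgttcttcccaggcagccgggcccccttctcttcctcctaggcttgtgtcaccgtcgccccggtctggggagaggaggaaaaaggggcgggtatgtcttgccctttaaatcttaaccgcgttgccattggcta
Fgf21 held 2 E-boxes and 1 TATA box. These letters were not in the windows of Ckm and Gpx3, and the MEF2 and CArG boxes were in none of the 3. Only the exact letters TATAAA were sought, and the Ckm window holds the near form tatataa, which they miss. Of 32851 RefSeq promoters cut to the same 150 bases, 47.7% hold an E-box, 7.57% the TATA box, 1.67% a MEF2 box and 0.916% a CArG box. A match describes the letters and is not a shown binding site.

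Gpx3 and Scd1 were among the genes higher in old cells at every level of Myog. Gpx3, a secreted glutathione peroxidase that reduces peroxides and carries selenium, averaged 484 CPM in young and 1292 CPM in old cells. The quartiles over cells were 31, 182 and 584 CPM in young and 231, 788 and 1777 CPM in old cells, so the old median lay above the young upper quartile. By bin the means were 665, 505 and 230.1 CPM in young and 1961, 1443 and 644 CPM in old cells, from low to high Myog. In both libraries the level was lowest in the high bin, and in every bin the old library was above the young one. The log2 ratio was 1.41 over all cells and 1.55, 1.51 and 1.46 in the 3 bins, and the ratio of summed UMIs was 2.91 (2.86 to 2.96), with the exact conditional binomial interval that all UMI ratios below carry. After thinning to 5000 UMIs a Gpx3 UMI was found in 55.6% (53.1 to 58.2%) of young and 79.3% (77.3 to 81.2%) of old cells, against 78.5% and 94.8% at full depth.

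Most of the other oxidant defence genes did not follow Gpx3 over all cells. Of 35 measured genes of glutathione and oxidant defence, 6 were higher and 14 lower over all cells, with a median of -0.20, and with equal shares 10 of 36 were higher and 4 lower. Hmox1, which breaks down haem, stood at 161 and 84.7 CPM (-0.89), and Prdx4, a peroxiredoxin of the endoplasmic reticulum, at 81.9 and 33.8 CPM (-1.16). Selenow, the selenoprotein of muscle, resembled Gpx3 in direction, with 96.1, 188 and 135 CPM in young and 186, 328 and 212 CPM in old cells from low to high Myog.

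Scd1, which desaturates stearate, averaged 36.7, 54.3 and 22.9 CPM in the 3 young bins and 79.5, 151 and 74.3 CPM in the old ones. Its log2 ratio was 1.51 over all cells and its UMI ratio 3.15 (3.0 to 3.32). Of 20 measured lipid genes 1 was higher and 10 were lower over all cells. In the high bin the list went with Scd1 more often, with 7 of 17 higher and 3 lower and a median of 0.25, while with equal shares 4 were higher and 5 lower. Apoe, the lipid carrier, was at 157 and 43.9 CPM (-1.73), Lpl at 87 and 37.8 CPM, and the lipid droplet protein Plin2 at 64 and 28.8 CPM. Within Myog-low cells, where these 3 were highest, their ratios were -0.58, -0.28 and -0.34.

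Several other genes shared the pattern of Gpx3. Of 4786 genes measured in all 3 bins, 30 were at least 1.5 times higher in old cells in every bin and 26 at least 1.5 times lower. Ndrg2, a member of the N-myc downstream-regulated family, stood at 67.2, 104 and 35.3 CPM in young and 166, 290.3 and 121 CPM in old cells from low to high Myog, with a UMI ratio over all cells of 3.42 (3.29 to 3.56). Akr1b3, aldose reductase, was at 432, 395 and 723 CPM in young and 864, 838 and 1302 CPM in old cells. The cold-inducible RNA-binding protein Rbm3 was at 421, 179 and 244 CPM in young and 904, 411 and 653 CPM in old cells. Its quartiles over all cells were 113, 249 and 436 CPM in young and 305, 456 and 735 CPM in old cells, so the old lower quartile lay above the young median. Cirbp, the other cold-inducible protein of that family, had ratios of 0.86, 0.52 and 0.62. Map1lc3a, which coats autophagosomes, was at 219.7, 794 and 394 CPM in young and 371, 1521 and 657 CPM in old cells, while of the 24 measured autophagy and lysosome genes 2 were higher and 4 lower with equal shares. Cdh15 had ratios of 0.71, 0.64 and 0.86 in the bins, and Igfbp5, which binds insulin-like growth factors, 1.27, 0.69 and 0.90. All of these were higher in old cells in each range of Myog, most of them by a like factor in each.

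**Figure D3:**
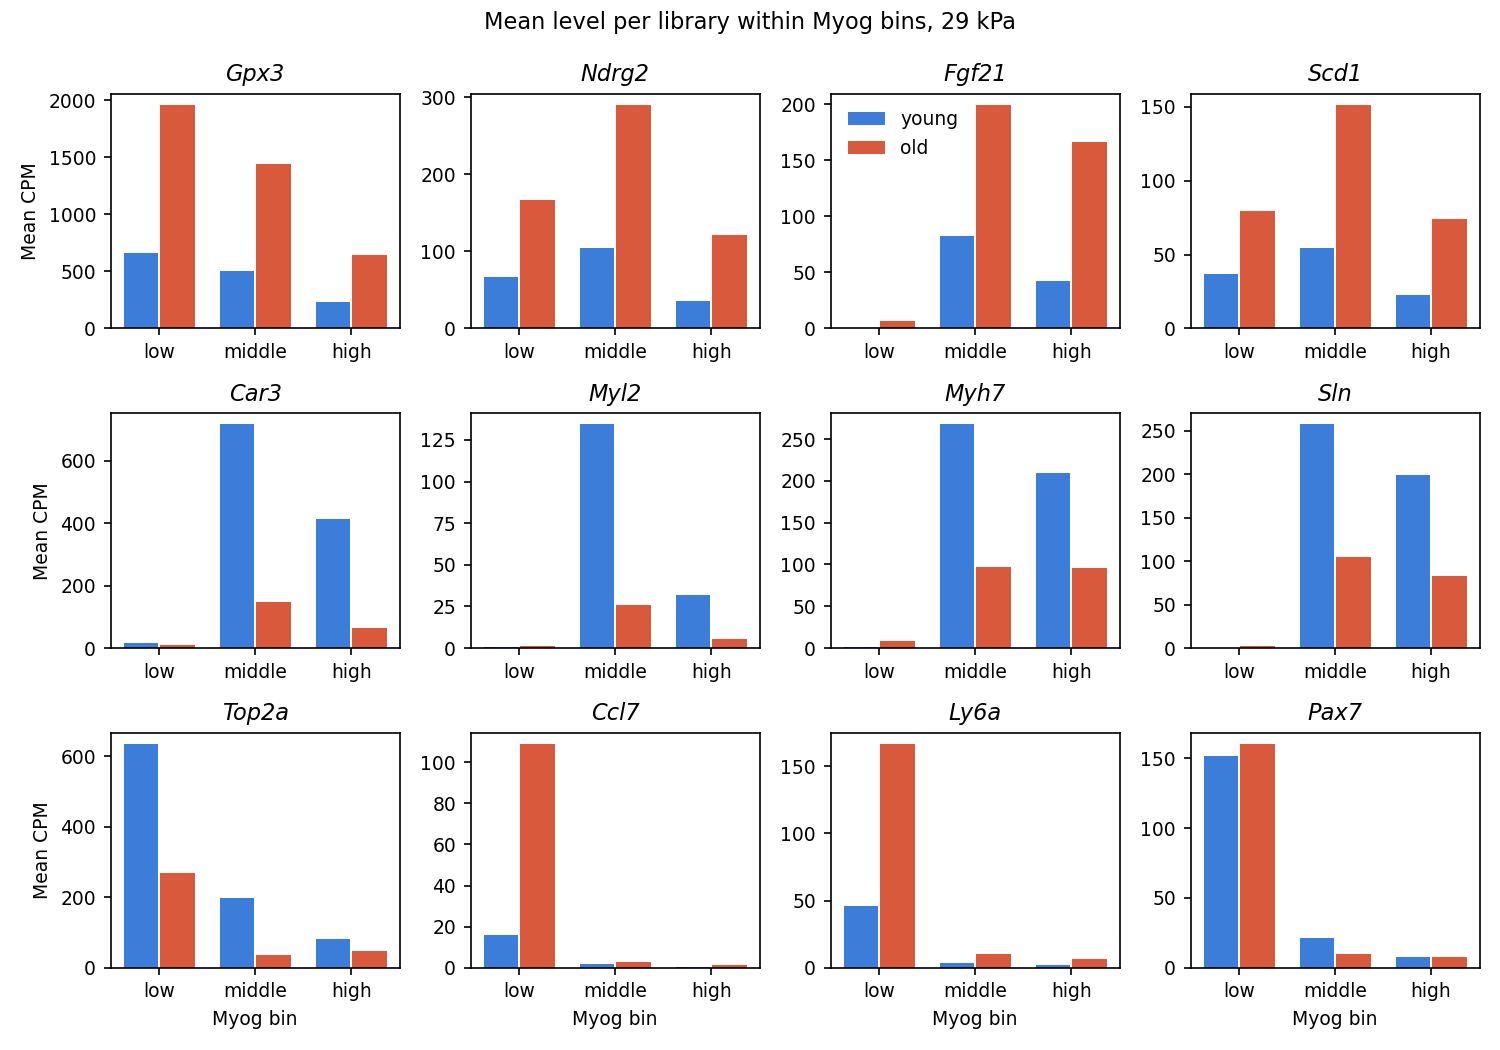
Bars give the mean CPM of 12 genes in young and old cells of the 29 kPa libraries within the low, middle and high Myog bins, from 1 library each and so with no error bar. Gpx3, Ndrg2 and Scd1 are higher in old cells in all 3 bins, Car3, Myl2, Myh7 and Sln are lower in the middle and high bins, and Ccl7 and Ly6a are higher chiefly in the low bin.

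Interferon-linked and antigen presentation genes were higher in old cells of like Myog, least so in the middle bin. Of 12 measured genes of the list, 9 were higher and 0 lower with equal shares, with a median of 0.59. By bin 11 of 14 were higher in the low, 3 of 9 in the middle and 7 of 8 in the high bin. The medians there were 0.68, 0.20 and 0.81, and 0 were lower in each. Over all cells 5 of 10 were higher and 2 lower, with a median of 0.38. Ifitm3, an interferon-induced membrane protein that blocks virus entry, averaged 287, 61.6 and 29.8 CPM in young and 631, 148 and 98.6 CPM in old cells from low to high Myog. It was highest in the low bin, which the old library held less of, and its ratio was 0.58 over all cells but 1.17 with equal shares. Bst2, or tetherin, was at 10.4 and 25.1 CPM, with ratios of 1.29, 1.00 and 1.11. H2-K1, a class I heavy chain, was at 29.2 and 58.2 CPM, with ratios of 0.65, 0.98 and 1.00, whereas its light chain B2m had ratios of -0.17, -0.07 and 0.02. H2-D1, the other class I chain named here, was at 30.3 and 31.4 CPM over all cells and had a ratio of 0.48 with equal shares. Counts of genes that share sequence with others may be split between them. Of 212 named genes with a transcript, 32 share over 20% of the 30-base words at the end of their transcripts with other genes, among them Akr1b3, Ly6a, Scd1, Myh7, Myh4, Pgam1, Hsp90aa1, Hspd1 and Pabpc1, and their levels are uncertain. The end of the transcripts of Ifitm3, H2-K1 and H2-D1 shares 29.3%, 27.6% and 36.3% of its words in this way.

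Chemokines and Ly6a differed chiefly in Myog-low cells. Ccl11, or eotaxin, averaged 6.34 CPM in young and 86.4 CPM in old Myog-low cells, and under 1 CPM in the other bins of either library. Its UMI ratio in the low bin was 15.3 (12 to 19.7), and after thinning to 5000 UMIs it was found in 2.5% (1.38 to 4.17%) of young and 12.5% (8.76 to 17.1%) of old Myog-low cells. Ccl7, a monocyte chemoattractant, stood at 15.9 and 109 CPM, a UMI ratio of 7.19 (6.21 to 8.33). Ly6a, the surface antigen Sca-1, stood at 45.8 and 166 CPM, with medians over cells of 0 and 44.1 CPM. Socs3, a feedback inhibitor of cytokine signalling, was at 20 and 76.9 CPM, and Il4ra, the interleukin 4 receptor chain, at 26.6 and 70.6 CPM. All 5 were higher in the old Myog-low cells, Ccl11 being found in a minority of them. The list of secreted inflammatory and growth factors did not share this direction. Of its 11 genes measured in Myog-low cells 3 were higher and 6 lower, with a median of -0.32, beside 10.1% and 15.1% of all genes. Over all cells 1 of 9 was higher and 7 were lower, with a median of -0.65. Ly6a is also on the list of fibro-adipogenic markers. Of its other 8 members in the tables, Gsn was at 245.5 and 401 CPM in young and old Myog-low cells and Dcn at 2.08 and 3.44 CPM, while Col15a1 was at 33.5 and 3.51 CPM, Dpt at 13.5 and 2.89 CPM and Lum at 2.18 and 0 CPM. The last 3, Pdgfra, Cd34 and Smoc2, were under 1 CPM in both. Their part in the level of Ly6a was not tested. Igfbp5 stood at 1373 and 3308 CPM there.

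A second set of Myog-low genes was lower in old cells. Dmp1, an acidic matrix protein known from bone and dentin, stood at 105 CPM in young and 21.6 CPM in old Myog-low cells and at 42.7 and 4.53 CPM over all cells, the lowest ratio of the named genes there at -2.32. Col15a1, a basement membrane collagen, was at 33.5 and 3.51 CPM. Prr9 was at 67.4 and 13.3 CPM, and the scaffold protein Iqgap2 at 38.5 and 6.31 CPM. The growth factor Areg was at 37.8 and 6.49 CPM, the peptide hormone Sct at 227 and 67.6 CPM, and Id4, which holds back helix-loop-helix factors, at 51.1 and 10.6 CPM. Each of these was at least 3 times lower by mean CPM in the old Myog-low cells.

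Muscle genes were higher over all old cells, and little of that was left within the middle and high bins. Of 44 measured sarcomere genes, 32 were higher and 4 lower over all cells, with a median of 0.56. The median was 0.15 in the middle bin, 0.04 in the high bin and 0.15 with equal shares. Acta1, skeletal muscle actin, averaged 7870.4 CPM in young and 13392 CPM in old cells, with ratios of 0.43 and 0.20 in the middle and high bins. The embryonic myosin Myh3 had 1393 and 2357 CPM, with 0.35 and 0.17. Among cells of like Myog the difference was thus small for most contractile genes.

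In Myog-low cells the sarcomere genes stood out, with 29 of 32 higher, 0 lower and a median of 1.98. Acta1 was at 86.8 and 1004 CPM there, and Myl1, a fast light chain, at 120.0 and 1427 CPM. Over 1000 CPM of Acta1 was found in 3 of 559 young (0.537%) and 17 of 264 old Myog-low cells (6.44%). Without them, an alternative chosen after seeing the data, the list's median was 0.57 over 19 measured genes, and the ratio was 1.66 for Acta1 and 1.63 for Myl1. Mymk, which fuses myoblasts, went from 1.32 to -0.07, and slow troponin Tnni1 from 1.19 to -0.89. The median old Myog-low cell had 107 CPM of Acta1 and the median young one 0, against 15208 and 12113 CPM in the middle bin. Free RNA in the droplets and doublets were not measured here, and their part in these low levels was not tested.

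Several late and fast-fibre genes were higher in old cells of like Myog as well. Ckm, muscle creatine kinase, averaged 3.23, 56.8 and 105 CPM in young and 16.7, 215 and 186 CPM in old cells from low to high Myog, with ratios of 1.83 and 0.79 in the middle and high bins, the latter being 0.13 when the cuts were set at 8 and 12. Its UMI was found in 13.2% (10.3 to 16.6%) of young and 39.1% (36 to 42.2%) of old middle-bin cells after thinning, and in 0.358% (0.0434 to 1.29%) and 1.89% (0.618 to 4.36%) of Myog-low cells. Myh4, the fastest myosin heavy chain of mouse limb muscle, stood at 6.66 and 34.7 CPM in the middle bin, a UMI ratio of 4.55 (3.73 to 5.61). Atp2a1, the calcium pump of fast fibres, stood at 871 and 1839 CPM in the middle bin and at 565 and 1026 CPM in the high bin. The fast troponins Tnni2 and Tnnc2 had ratios of 0.77 and 0.63 with equal shares, and Mymx, the second fusion protein, 0.96. These 6 were higher in old cells in both the middle and the high bin. Under the alternative settings given below, high-bin ratios were 0.10 to 0.63 for Tnni2, 0.12 to 0.54 for Tnnc2 and 0.13 to 1.13 for Ckm. They were 0.39 to 0.92 for Myh4, 0.45 to 0.90 for Mymx and 0.80 to 0.94 for Atp2a1. Not every fast-type gene was higher in both bins. Under the same settings, the fast myosin Myh1 had ratios of -0.19 to -0.01 in the high bin and 0.10 to 0.23 with equal shares. The fast light chain Myl1 had -0.32 to 0.13 in the high bin and 0.23 to 0.48 with equal shares. When cells were matched on Acta1, Mylpf and Myl1 in place of Myog, the ratios were 0.98 for Ckm, 0.91 for Atp2a1 and 0.72 for Mymx.

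Fgf21, a hormone that muscle secretes under metabolic and mitochondrial stress, was higher in old cells of the middle and high bins. It averaged 39.6 CPM in young and 161 CPM in old cells, a UMI ratio of 4.2 (4.0 to 4.4). By bin the young means were 0.390, 82.1 and 42.5 CPM and the old means 6.29, 199.8 and 166 CPM from low to high Myog. After thinning, a Fgf21 UMI was found in 18.6% (15.2 to 22.4%) of young and 32.1% (29.2 to 35.1%) of old middle-bin cells, in 9.82% (7.2 to 13%) and 28.4% (24.5 to 32.6%) of the high bin, and in 0% (0 to 0.658%) and 1.89% (0.618 to 4.36%) of the low bin. The gene was thus nearly confined to cells with Myog in both libraries, and was found in more of them in the old one. The young high-bin median was 0 CPM and the old one 0 CPM, so at full depth most high-bin cells of either library had no UMI of it.

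A group of slow-fibre genes went the other way in the middle and high bins. Car3, the carbonic anhydrase of slow fibres, averaged 16.3, 716 and 413 CPM in young and 9.9, 147 and 65.2 CPM in old cells from low to high Myog. Its ratios were -2.24 and -2.57 in the middle and high bins, with a UMI ratio of 0.161 (0.151 to 0.170) in the latter. The young middle-bin quartiles were 0, 83.3 and 799 CPM and the old ones 0, 0 and 74.5 CPM, and a UMI was found in 47.9% (43.4 to 52.5%) and 23% (20.4 to 25.8%) of thinned middle-bin cells. Myl2, the regulatory light chain of slow and cardiac muscle, was at 134 and 25.9 CPM in the middle bin and 32 and 5.27 CPM in the high bin. Myh7, the slow myosin heavy chain, was at 268 and 96.9 CPM, then 209.7 and 96 CPM. Sln, or sarcolipin, which restrains the calcium pump, was at 257 and 105 CPM, then 199 and 82.4 CPM. All 4 were lower in old cells in both bins, and the difference was larger with equal shares (-2.27, -1.92, -1.18 and -1.20) than over all cells (-1.77, -1.46, -0.81 and -0.75).

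Not every slow-type gene did this. The slow troponins Tnnt1, Tnni1 and Tnnc1 had ratios of 0.55, 0.18 and 0.31 with equal shares, and Atp2a2, the calcium pump of slow fibres, 0.01. A further pair lay beside Car3: the kinase gene Mylk4, with 297 and 130.4 CPM in the high bin, and the matrix protein gene Frem2, with 24.1 and 2.47 CPM. In the high bin Inha, a subunit of inhibin, stood at 76 and 24.8 CPM, and Tmsb15a, a thymosin that binds actin monomers, at 69.9 and 16.1 CPM.

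Muscle isoforms of energy enzymes were higher in old cells, nuclear genes of oxidative phosphorylation slightly so, and other energy genes were mixed. Of 18 measured muscle isoforms of energy enzymes, 16 were higher and 1, Car3, was lower over all cells, with a median of 0.70. With equal shares 10 of 17 were higher, with a median of 0.37. Cox6a2, the muscle form of a cytochrome oxidase subunit, had ratios of 0.34 and 0.39 in the middle and high bins. Ckb, the brain-type creatine kinase and not a muscle isoform, was higher as well. It stood at 92.8, 177 and 361 CPM in young and 126, 370.5 and 563 CPM in old cells from low to high Myog. Of 69 nuclear genes of oxidative phosphorylation, 32 were higher and 1 lower over all cells. Their median was 0.30, and 0.16 with equal shares, beside -0.13 and -0.06 over all measured genes. With equal shares 5 were higher, near the share of all genes, and 0 lower. Small ratios above 0 were the rule, in 65 of 69 over all cells and 64 with equal shares. Ndufc1 of complex I stood at 546 and 856 CPM and Atp5e of the ATP synthase at 1205 and 1866 CPM. The 13 mitochondrially encoded genes had a median of -0.03, with 0 higher and 2 lower. Glycolysis and hypoxia genes were mixed, with 4 of 24 higher and 9 lower: Pfkm, the muscle phosphofructokinase, was at 135 and 247 CPM and Pgam1, a general phosphoglycerate mutase, at 315 and 173 CPM.

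Cell cycle genes were lower in old cells both over all cells and within the bins that hold dividing cells. All 32 measured genes of G2 and mitosis were lower over all cells, with a median of -1.52, as were 29 of 30 S phase genes, with a median of -1.14. In Myog-low cells 35 of 36 and 32 of 34 were lower, with medians of -0.91 and -0.58. Top2a, which untangles DNA before division, averaged 634, 198 and 82.2 CPM in young and 269, 35.3 and 48 CPM in old cells from low to high Myog. Its UMI ratio was 0.397 (0.379 to 0.415) in the low bin and 0.137 (0.128 to 0.146) in the middle bin. Mki67, the proliferation marker, was found in 38.6% (34.6 to 42.8%) of young and 24.2% (19.2 to 29.9%) of old Myog-low cells after thinning to 5000 UMIs, in 8.88% (6.5 to 11.8%) and 1.95% (1.18 to 3.03%) of middle-bin cells, and in 3.42% (1.93 to 5.59%) and 1.6% (0.693 to 3.13%) of high-bin cells, the bin furthest from division. Cells with a Mki67 UMI were thus a smaller share of the old cells in the low and middle bins, and the low bin that held most of them was itself smaller. Ccne2, which starts S phase, stood at 112 and 41.3 CPM in Myog-low cells and Mcm3, part of the replicative helicase, at 153 and 82.7 CPM. Matching cells on Acta1, Mylpf and Myl1 in place of Myog left medians of -0.65 for G2 and mitosis and -0.48 for S phase.

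The genes of cell cycle exit were not uniform. Cdkn1a, the inhibitor p21 that Myod1 and p53 induce, averaged 1314 CPM in young and 1642 CPM in old cells. Its ratio was 0.99 in Myog-low cells, where the levels were 168 and 339 CPM, and -0.17 and 0.14 in the other bins. Without the Myog-low cells over 1000 CPM of Acta1 the low-bin ratio was 0.77. Cdkn1c, the inhibitor p57 of early myocytes, was at 7.17, 30 and 250.2 CPM in young and 15.4, 36.5 and 450.4 CPM in old cells from low to high Myog. Of 16 measured genes of this list, 7 were higher and 2 lower in Myog-low cells. Of 17 p53 and senescence genes, 7 were higher and 3 lower there, with a median of 0.31. Gadd45b and Gadd45g, both stress-induced, were at 87.3 and 41.9 CPM and at 170.1 and 94.9 CPM over all cells.

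Pax7 was lower over all old cells and in the middle bin, but not in the Myog-low cells where it was highest. It averaged 66.1 CPM in young and 32.1 CPM in old cells, a ratio of -0.94. In Myog-low cells it stood at 151 and 160.0 CPM, with quartiles of 66.3, 123 and 202 CPM in young and 63.3, 144 and 236 CPM in old cells. The UMI ratio in that bin was 1.02 (0.949 to 1.1). After thinning it was found in 50.5% (46.2 to 54.7%) of young and 51.1% (44.9 to 57.3%) of old Myog-low cells, in 8.06% (5.79 to 10.8%) and 4.0% (2.86 to 5.43%) of middle-bin cells, whose means were 21 and 10 CPM, and in 3.88% (2.28 to 6.14%) and 4.0% (2.46 to 6.11%) of high-bin cells, which should lack it. Myf5, the other early determination factor, was at 168 and 192 CPM in Myog-low cells, and Myod1 at 942 and 905 CPM over all cells. The quiescence and Notch list had 10 of 16 genes lower over all cells, with a median of -0.54, but -0.07 with equal shares. Hes1, a Notch effector, remained lower among Myog-low cells at 393 and 239 CPM, as did Sdc3, a syndecan of satellite cells, at 167 and 83.3 CPM, whereas Notch3 had a ratio of -0.26 and Heyl of -0.27.

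Matrix genes were lower in old cells, in large part with the share of Myog-low cells that hold them. Of 24 measured collagen, laminin and other matrix genes, 20 were lower and 1 was higher over all cells, with a median of -1.03. With equal shares 12 were lower and 2 higher, with a median of -0.31. Col6a3, a chain of the microfibrillar collagen VI, averaged 196 CPM in young and 65.7 CPM in old Myog-low cells, with medians over cells of 124 and 0 CPM. Fn1, fibronectin, was at 504 and 252 CPM there and Tnc, tenascin C, at 84.9 and 27.2 CPM. Mgp, matrix Gla protein, was at 2264 and 1518 CPM. Col1a2, a fibrillar collagen chain, differed from these: it was at 205, 18.8 and 6.64 CPM in young and 261, 22.7 and 33.9 CPM in old cells, with the largest ratio in the high bin (1.74). The collagen chaperone Serpinh1 was lower in every bin, at 888, 248 and 291 CPM in young and 476, 77.6 and 144 CPM in old cells, and the prolyl hydroxylase P4ha1 likewise, at 74.5, 85.1 and 119 CPM in young and 43.2, 47.7 and 61.4 CPM in old cells. The collagen folding list as a whole had a median of -0.12 with equal shares, with 4 of 16 genes lower.

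Among secreted and protease genes, Spp1, osteopontin, averaged 5116 CPM in young and 1635 CPM in old cells and 12293 and 6698 CPM in Myog-low cells. Its median in the middle bin ran the other way, at 109 and 307 CPM. Timp1, an inhibitor of matrix proteases, was at 843 and 354 CPM in Myog-low cells with a ratio of -1.24, and had -0.07 in the high bin. Pgf, placental growth factor, was at 241 and 129.8 CPM, and Csf1 at 191 and 148 CPM.

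Genes of the cytoskeleton and of mechanical signalling were lower over all old cells and closer to the young level among cells of like Myog. Of 34 actin cytoskeleton and SRF target genes, 22 were lower and 4 higher, with a median of -0.62, against -0.23 with equal shares. Tagln2, an actin-bundling protein, was at 627 and 398 CPM in Myog-low cells, Tpm4 at 566 and 379 CPM and the tubulin Tubb5 at 1187 and 800.2 CPM. The YAP and TAZ targets gave 9 of 20 lower and 3 higher, with medians of -0.26 over all cells and -0.10 with equal shares. Cyr61 stood at 168, 61.2 and 55.1 CPM in young and 144, 31.6 and 45.3 CPM in old cells from low to high Myog and Ctgf at 17.5, 3.68 and 13.6 CPM in young and 15.3, 8.44 and 5.93 CPM in old cells, while Ankrd1, a stretch-responsive muscle gene that also counts as a YAP target, was at 340.4, 1728 and 1303 CPM in young and 315, 2483 and 1527 CPM in old cells. Ctgf was under 20 CPM in each bin, and Cyr61 and Ankrd1 differed in direction in the middle and high bins. Integrin and focal adhesion genes had a median of -0.09 with equal shares, with Itga6, the laminin receptor chain, at 21.3, 41.2 and 99.8 CPM in young and 12.5, 15.2 and 59.3 CPM in old cells and lower in each bin. The nuclear lamina and LINC list had like medians in both views, with values of -0.39 over all cells and -0.37 with equal shares and 7 of 13 genes lower. Lmnb1, lamin B1, was at 90.7 and 53.9 CPM in Myog-low cells and Tmpo, a lamina-associated protein, at 177 and 107 CPM, whereas Tmem38a, a cation channel of the sarcoplasmic reticulum and nuclear membrane, was higher, at 185 and 388 CPM over all cells.

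Of the TGF-beta and BMP list 8 of 18 genes were lower and 1 was higher with equal shares, with a median of -0.29. Smad7 and Smad6, which inhibit the pathway, were at 149, 55.1 and 51.3 against 86.5, 23.6 and 26.2 CPM and at 23.1 against 8.42 CPM. The ligand Tgfb1 was at 92.8 and 41.3 CPM and Tgfb2 at 379.9 and 179 CPM. All 4 were lower over all old cells, and Smad7 and both ligands also in each bin. Smad6 was under 20 CPM in the middle and high bins.

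Chaperones of the endoplasmic reticulum were lower as well. Of 25 measured genes of that list 12 were lower and 1 was higher with equal shares, with a median of -0.26. Hsp90b1 was at 716, 317 and 303 CPM in young and 427, 153 and 206 CPM in old cells from low to high Myog, and the calcium-binding chaperone Calr at 696, 307 and 293 CPM in young and 494, 168 and 225 CPM in old cells. In the cytosol and mitochondria, Hsp90aa1 was at 906 and 536 CPM and Hspd1 at 366 and 193 CPM, while the muscle chaperone Hspb7 was higher, at 122 and 229.9 CPM. All 4 general chaperones named here were lower in each bin.

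RNA decay genes, which the study's title sets between stiffness and the fate of old cells, differed little by list. With equal shares the medians were -0.11 for deadenylation, -0.03 for decapping and 5′ to 3′ decay, -0.09 for the exosome, -0.12 for nonsense-mediated decay and -0.10 for AU-rich element binding proteins, beside -0.06 over all measured genes. The exonuclease gene Xrn1 was at 24.9 and 18.1 CPM over all cells, Upf1, the helicase of nonsense-mediated decay, at 43.9 and 38.8 CPM, the decapping enzyme Dcp2 at 17.9 and 12.9 CPM, and the deadenylase scaffold Cnot1 at 41.2 and 30.8 CPM. Pabpc1, the poly(A)-binding protein, differed most of the deadenylation genes, at 689, 247 and 389 CPM in young and 524, 129 and 285 CPM in old cells from low to high Myog. Over all cells these 5 lists had medians between -0.25 and -0.11, when the median gene was at -0.13. The 79 cytosolic ribosomal genes had a median of 0.04 and the 35 proteasome genes of 0.12 with equal shares.

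**Figure D4:**
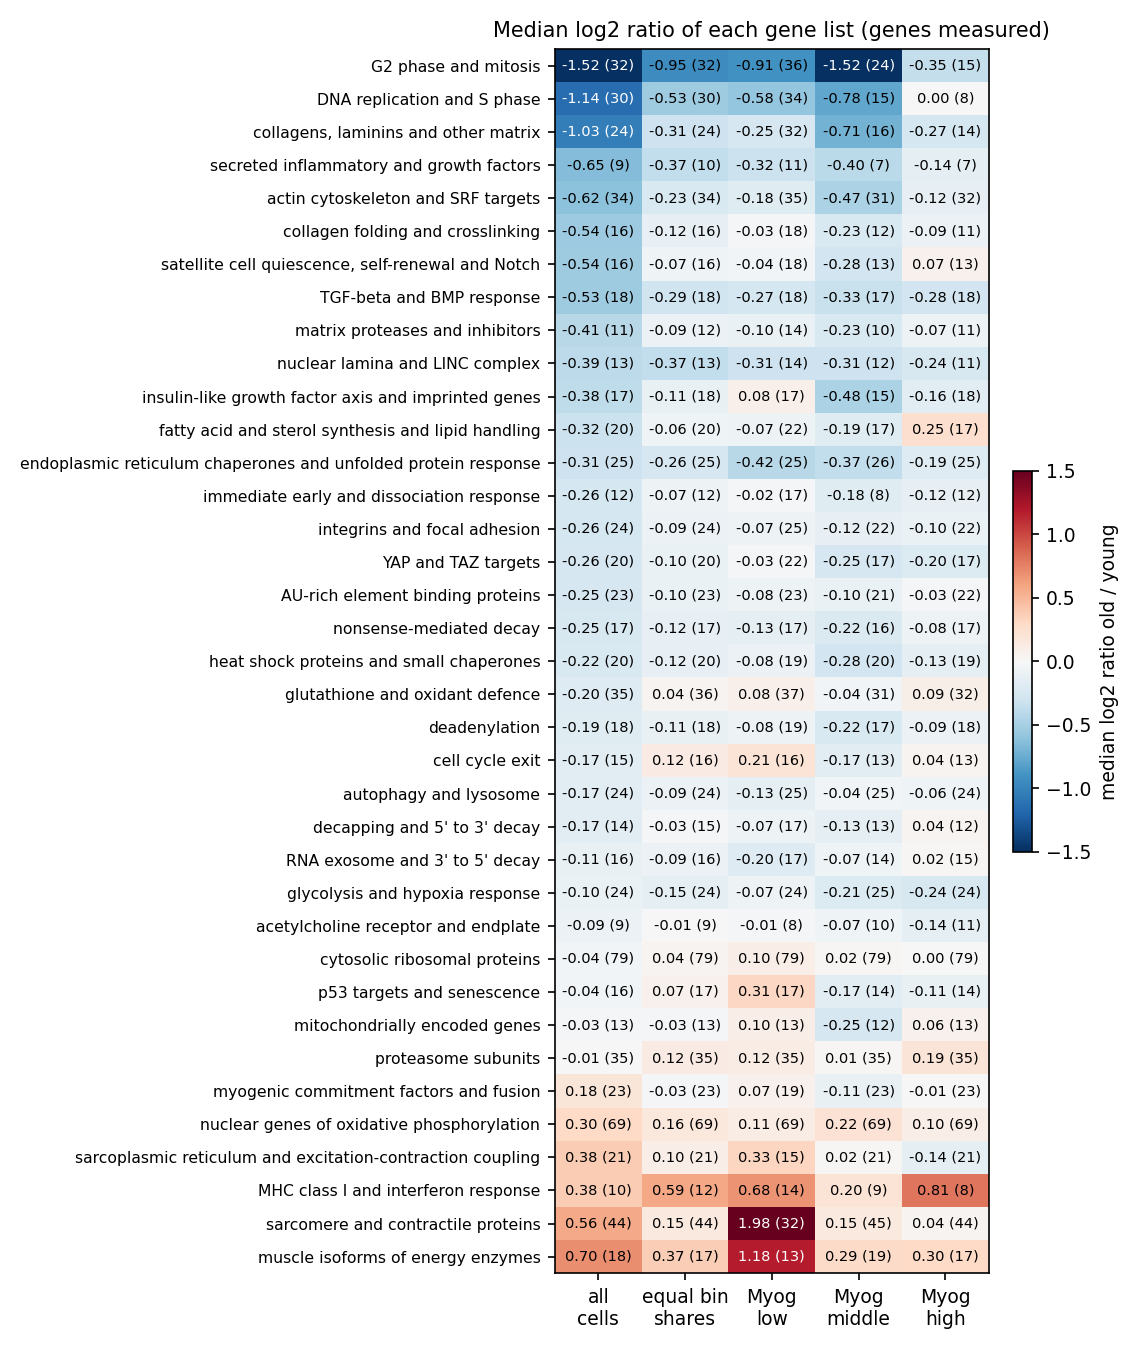
Colour and number give the median log2 ratio of old over young for the measured genes of 37 lists, with the number of genes measured in brackets, over all cells, with equal Myog bin shares and within each bin. Cell cycle lists lie lowest in the first column, at -1.52 and -1.14, and the sarcomere list is highest in the low bin, at 1.98.

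On the soft substrate, whose 2 libraries share none with the stiff ones, old and young cells differed in a like way. There 45 of 6147 genes (0.732%) were 2 times higher in old and 170 (2.77%) lower. Over 5979 genes measured on both substrates the log2 ratios of age correlated with Pearson r = 0.947 and Spearman rho = 0.951, across genes that are not independent replicates, and with 0.888 and 0.893 at equal bin shares. Of the 53 genes higher on stiff, 50 had the same sign on soft and 36 were past 2-fold there, and of the 228 lower ones all 228 had the same sign and 144 were past 2-fold. The ratio on soft was 1.64 for Gpx3, 1.48 for Fgf21, -2.19 for Car3, -1.71 for Top2a and 1.61 for Ly6a. Ccl11 was under 20 CPM over all cells in all 4 libraries, at 7.26 and 12.8 CPM in young and old soft cells and 2.48 and 13.7 CPM on stiff. Whether age differences depend on stiffness was not tested, since each combination had 1 library.

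**Figure D5:**
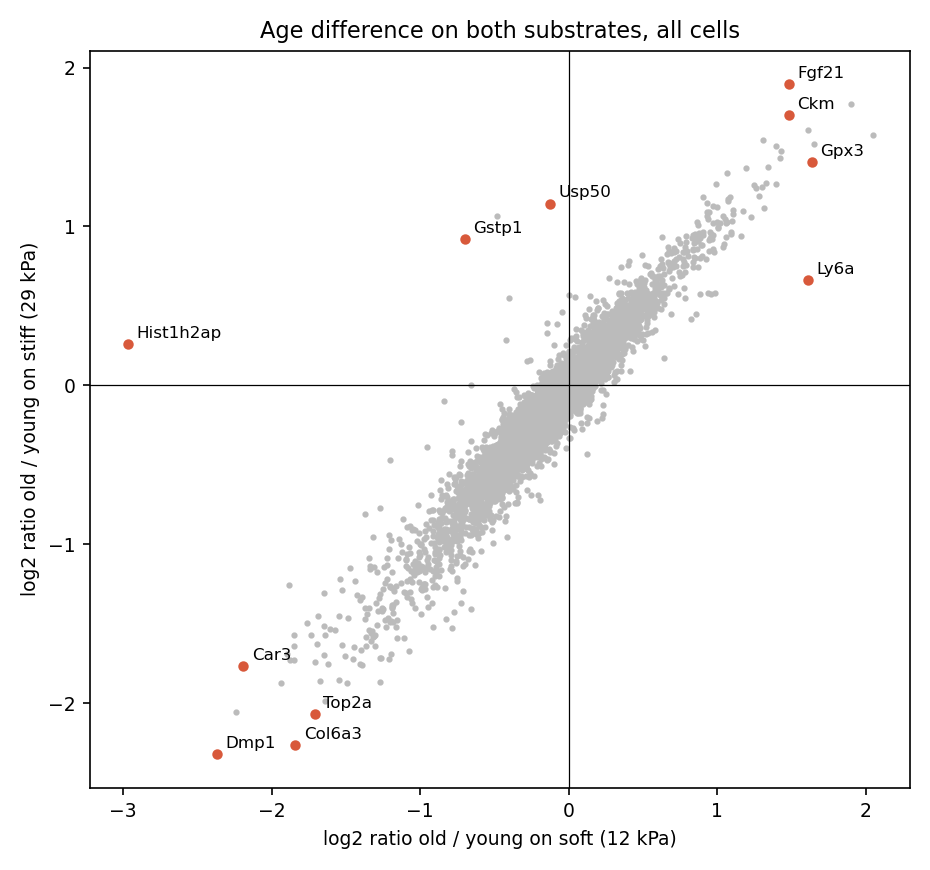
Each point is a gene with at least 20 CPM on both substrates; the axes are the log2 ratio of old over young on soft (12 kPa, horizontal) and on stiff (29 kPa, vertical), over all cells. Most genes lie along the diagonal, and Gstp1 and Hist1h2ap lie apart in the upper left, where the ratio is below 0 on soft and above 0 on stiff; Hist1h2ap shares 93.4% of its end with other genes.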

How the data were processed

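Droplet-based 3' RNA libraries of cultured muscle stem cells were deposited as gene-by-cell tables, 1 for each of 4 libraries. The values deposited by the authors are log2(CPM + 1) per cell, as read from the values, which sum to 1000000 per cell once the log is undone. The submitters' processing notes name Cell Ranger 6.1.2 and Partek without roles; the genome build, annotation and cell filters are not given in the sources used here. The log was undone before averaging, and whole UMIs were recovered from the smallest step of each cell (tolerance 0.05).

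Ratios are log2 of mean CPM plus 5 in old over young cells, for genes that reached 20 CPM in the young or the old library, with steps of 2 times and of 0.32 on the log2 scale. Equal shares weight the old bin means by the young bin shares. UMI ratios carry exact conditional 95% binomial intervals. Over 214 named genes the farther bound was 4.70% away from its ratio for the median gene and 40.3% for the widest, with 4 genes over 20%, for counting error only. Shares of cells with a UMI were taken after thinning to 5000 UMIs. With 1 library a side no test across samples could be made. The share of 30-base words that the last 500 bases of a gene's transcripts have in common with other genes was taken from GENCODE M21.

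The members and gene lists were chosen with earlier results of these data known. Named genes are the 12 highest and 12 lowest ratios over all cells, the 8 at each end in every bin and with equal shares, up to 4 per list, 6 each way for the gap between low and high bins, and fixed names; others, H2-D1 among them, were chosen after their values were seen. Alternatives varied the pseudocount, level filter, scaling, cuts, matching genes and cells kept. A gene is counted in the totals but not reported here. The scripts were tested on simulated data. Python 3.11.15, NumPy 2.4.6, pandas 2.3.3, SciPy 1.17.1 and Matplotlib 3.10.9 were used.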

Additional observations from a re-analysis of the deposited data

Results flagged for a closer look

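Gstp1, a glutathione transferase, had opposite age differences on the 2 substrates. It stood at 46.6 CPM in young and 92.7 CPM in old cells on stiff and at 91.4 and 54.3 CPM on soft, a log2 ratio on stiff minus soft of 1.62. Each value comes from 1 library, and the difference was not tested. The end of its transcripts shares 42.4% of 30-base words with other genes, so its level is uncertain.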

How the results depend on the processing

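Counts are genes at least 2 times higher and lower in old cells. With a pseudocount of 1, 45 were higher in the middle bin, 39 lower in the high bin and 58 lower with equal shares. With 20, counts were 23 and 91 over all cells, 59 and 16 in the low bin, 18 and 49 in the middle, 9 and 7 in the high, and 17 and 11 with equal shares. With a 50 CPM minimum, 128 were lower over all cells and 71 in the middle bin, with 58 and 33 in the low bin, 12 and 12 in the high, and 17 and 25 with equal shares. With 5 CPM, 43 were higher in the middle bin, and the median of the sex-linked list turned to -0.10 over all cells, -0.014 in the middle bin, -0.035 in the high bin and -0.028 with equal shares. Rescaling gave 82 higher over all cells and 45 in the middle bin. Cuts at 6 and 10 gave 45 and 368 in the middle bin. Cuts at 8 and 12 gave 176 and 99 in the low bin, 89 lower in the middle and 32 higher in the high. Matching on Acta1, Mylpf and Myl1 left 22 lower. Without cells over 1000 CPM of Acta1, 56 were higher in the low bin, and Mymk turned to -0.073 and Tnni1 to -0.89 there. Cuts at 6 and 10 put 17.8% of young cells in the middle and 46.9% in the high bin, and 13.5%, 33.1% and 53.4% of old cells in the low, middle and high bins. Cuts at 8 and 12 gave 48.0% and 12.5% of young, and 18.3%, 69.4% and 12.3% of old cells. Of the old cells with at least 10000 UMIs, 17.3% fell in the low bin after thinning to that number. The cause of these shifts was not tested. Of all alternatives, 70 of 102 gene counts, 19 of 30 shares, 1717 of 1937 list medians and 6448 of 9350 named ratios stayed within 1.5 times for counts, 0.1 for medians and counting error for ratios and shares. The 6 reversals named above are among medians past 0.32 and ratios past 2-fold. A further 88 medians and 80 ratios below those steps changed sign under an alternative. Leaving out cells under 1% mitochondrial gave 46 and 214 over all cells. Each side being 1 library, no spread between libraries is known. No paired analysis was possible because each group had 1 library.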

Other observations

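Other insulin-like growth factor genes and acetylcholine receptor genes were also compared. Igf1 averaged 30.1 CPM in young and 14.5 CPM in old cells and was lower in each bin, with ratios of -0.65, -0.99 and -0.44. Igfbp4, which binds and holds back these factors, stood at 43.8 and 8.41 CPM in the middle bin, and Igfbp3 at 85.9 and 29.3 CPM, whereas in Myog-low cells Igfbp3 was at 222 and 234 CPM and Igfbp7 at 1475 and 1450.2 CPM. Of the receptor subunits Chrng, the fetal one, was at 218 and 395 CPM, with ratios of 1.04, 0.57 and 0.21 in the bins, while Rapsn, which clusters the receptor, was at 197 and 129 CPM and had ratios of -0.46, -0.52 and -0.34.

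Thbs1, thrombospondin 1, differed between bins more than most matrix genes: it stood at 45.7, 3.83 and 6.82 CPM in young and 49.9, 29 and 24.4 CPM in old cells from low to high Myog. Eif2s3y, a Y-linked gene, was at 42.9 and 72.1 CPM with ratios of 0.78, 0.69 and 0.74, while the Y-linked Ddx3y had 0.05, 0.06 and -0.02.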
